A study of Mus musculus with 150 samples.

Results

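Mouse chromosome 10 was described here as 255 consecutive genomic bins, chosen as every bin that the deposited log2 ratio table places on that chromosome, out of 5331 bins in all. The bins have a median length of 499 kb and run from base 3100001 to base 130594993 of GRCm38. All 255 passed the filter on coverage and made up 5.31% of the 4806 autosomal bins that passed. Values come from genomic DNA of individual cells. Animal M3 gave 3 lung tumours (T1, T7, T9) at 30 weeks after induction, with 50 cells each. After filters on coverage and noise T1 kept 47 cells, T7 kept 48 and T9 kept 50, which is 145 of the 150 deposited.

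The mice were of a mixed C57BL/6 and Sv129 background with Trp53 flox/flox, Rosa26 LSL-tdTomato and Rosa26 LSL-Luciferase among the strains the labels list, and the time point label of all 3 groups reads KP_30w_ND. Tumours were induced by AdSPC-Cre, an adenovirus that expresses Cre recombinase from the surfactant protein C promoter of alveolar type 2 cells, or by AdCMV-FlpO, an adenovirus that expresses Flp recombinase from a general promoter. The labels do not say which virus this mouse received. Trp53 encodes the tumour suppressor p53, and LSL marks a cassette that blocks a gene until Cre removes it. The labels give lung tissue and AT2 (alveolar type 2) cells as the source, which markers in DNA cannot check. All 3 groups share the animal, the genotype and the time point, and the labels name no group of normal cells. Whether single cells of a tumour are unaltered cells was not tested. A difference between 2 tumours is therefore a difference between 1 sample and 1 sample, and no test was made between them.

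A cell that loses a copy of a chromosome has fewer reads along its whole length, while a break within a chromosome leaves a step in read depth at the position of the break. Mouse chromosomes have their centromere at 1 end, so chromosome 10 has a single long arm. Here proximal means towards the centromere, where the numbering starts, and distal means towards the other end. Chromosome 10 of the mouse carries Mdm2, whose product marks p53 for destruction, the cell cycle kinases Cdk1, Cdk2 and Cdk4, and Stk11, the kinase Lkb1, a tumour suppressor in lung adenocarcinoma. It also carries Lyz2, the lysozyme gene that alveolar type 2 cells and macrophages express.

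The reference table places 1001 protein-coding genes on the chromosome, 345 on the proximal stretch up to 70 Mb, 655 beyond it and 1 across the border. Of its 51 miRNA hairpins 40 are distal. The mature sequences of 4 of the distal miRNAs are shown because they lie on the stretch that was lost in more T7 cells than the rest of the chromosome. They were chosen after the losses had been located. Sequences and positions are from RefSeq on GRCm38.p6, written 5′ to 3′ with the seed (bases 2 to 8, which pair with target RNAs) in capitals.
mmu-let-7i-5p: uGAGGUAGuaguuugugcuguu
mmu-miR-26a-5p: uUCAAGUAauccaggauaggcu
mmu-miR-135a-5p: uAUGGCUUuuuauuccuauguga
mmu-miR-331-3p: gCCCCUGGgccuauccuagaa
No 2 of these 4 share a seed. The first is encoded at chr10:122985698-122985719 on the minus strand by Mirlet7i, whose family represses the chromatin protein gene Hmga2, also a gene of distal chromosome 10. The others are encoded by Mir26a-2 at chr10:126995543-126995564 on the plus strand, by Mir135a-2 at chr10:92072141-92072163 on the minus strand, and by Mir331 at chr10:93963783-93963803 on the minus strand. Each of the 4 lay in a lost segment in 13 cells of T1, 11 cells of T7 and 0 cells of T9.

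The level of a cell is the median log2 ratio of its 255 bins once the median over all autosomal bins was subtracted, so 0 is the middle of that cell's own genome. In T1 the levels ran from -0.70 in cell 180031 through a median of -0.18 to -0.04 in cell 180016, with an SD of 0.19 over 47 cells. In T7 they ran from -0.87 in cell 180051 through a median of -0.02 to 0.18 in cell 180085, with an SD of 0.25 over 48 cells. In T9 they ran from -0.24 in cell 180132 through a median of 0.02 to 0.27 in cell 180109, with an SD of 0.12 over 50 cells. By this ratio every T1 cell lay below 0, and the ranges of the 3 tumours overlapped between -0.24 and -0.04. Proximal and distal bins gave close medians in each tumour, -0.20 and -0.19 in T1, -0.03 and -0.02 in T7, and 0.02 and 0.01 in T9.

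**Figure D1:**
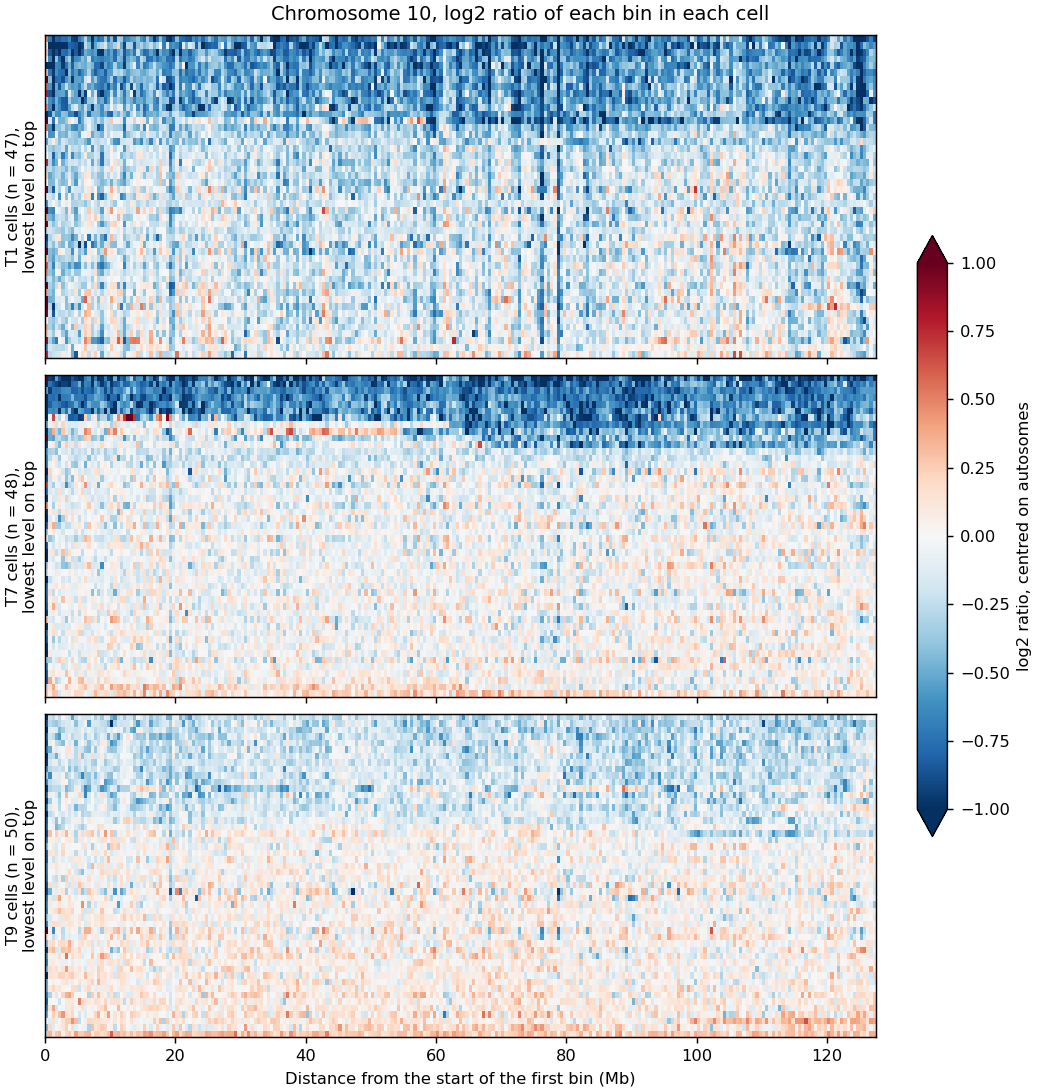
Log2 ratio of each chromosome 10 bin (columns, by distance in Mb from the start of the first bin) in each cell (lines, lowest level on top) of T1 (n = 47), T7 (n = 48) and T9 (n = 50), with values beyond 1 or -1 shown at the end of the colour scale. The upper 12 lines of T1 and the upper 7 of T7 are blue along most of the chromosome, a few T7 cells below them are blue only on the right, and no T9 cell is blue to that depth.

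The plot of all bins in all cells shows 2 kinds of loss, along the whole chromosome and of its distal end. A cell was called lost when its level reached -0.42 or less, which is where 1.5 copies would lie against 2. That held for 13 T1 cells, 8 T7 cells and 0 T9 cells. Over all pairs of a cell and an autosome 13.5% were called lost in T1, 1.64% in T7 and 5.26% in T9. For chromosome 10 the share was 27.7% in T1 (exact 95% interval 15.6 to 42.6) and 16.7% in T7 (7.48 to 30.2). With 0 of 50 T9 cells, shares up to 6% remain possible there. These intervals cover counting error only. It ranked 3 among the 19 autosomes of T1, where chromosome 4 was lost in 45 cells, and 1 in T7.

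The 13 lost T1 cells had levels from -0.70 to -0.47 with a median of -0.55, and the 34 others lay between -0.38 and -0.04 with a median of -0.17, ranges that the threshold itself separates. The gap from cell 180006 at -0.47 to cell 180019 at -0.38 was 0.089, and the next gaps by width, from -0.38 to -0.30 and from -0.64 to -0.58, were 0.077 and 0.065. In T7 the 8 lost cells had levels from -0.87 to -0.42 with a median of -0.65. The 40 others had a median of -0.02, and the gap of 0.10 from cell 180055 at -0.42 to cell 180086 at -0.32 ranked 3 by width in that tumour. Both T7 cells beside the threshold had lost part of the chromosome, so their level is a mixture of 2 parts.

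The share of a cell's autosomal bases that fell on chromosome 10 uses the depth table and no ratio. In T1 it ran from 3.25% to 3.998% with a median of 3.45% in the lost cells, and from 3.94% to 5.04% with a median of 4.63% in the others. Those ranges overlapped by the partly lost cell 180006 and by cell 180019, at a level of -0.38. In T7 the lost cells ran from 2.90% to 4.16% with a median of 3.33%, and the others from 4.08% to 5.97% with a median of 5.03%. The T9 cells ran from 4.48% to 5.87% with a median of 5.29%. The T7 cells without the call thus spanned the whole range of T9.

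**Figure D2:**
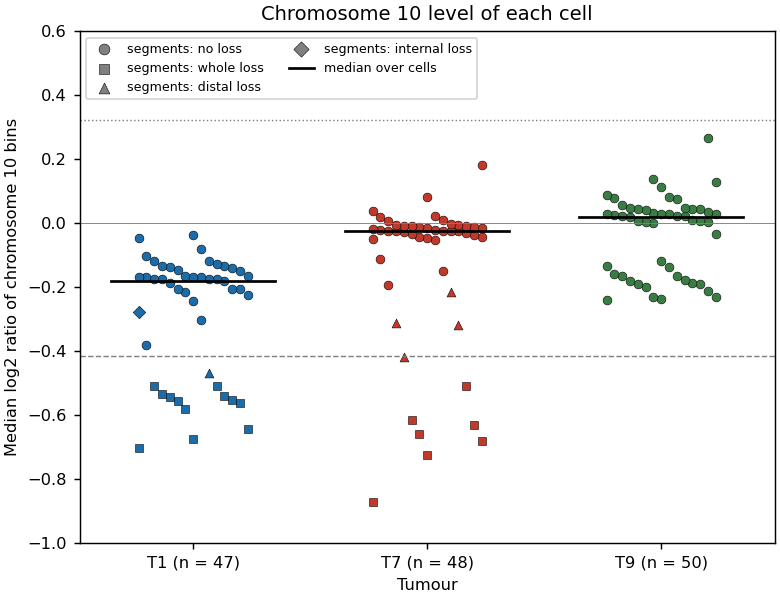
Median log2 ratio of the chromosome 10 bins of each cell in T1, T7 and T9, with the marker shape giving the loss found by segments, a bar at the median over cells, a dashed line at the loss threshold of -0.42 and a dotted line at the gain threshold of 0.32. Whole losses (squares) lie between -0.70 and -0.51 in T1 and between -0.87 and -0.51 in T7, partial losses (triangles and the diamond) lie above most of them, and T9 has a lower set of 17 cells that stays above the threshold.

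Segments of at least 5 bins and 10 Mb were then fitted along the chromosome of each cell. A loss was called whole when lost segments held at least 80% of the length. Whole loss was found in 12 T1 cells, 25.5% (13.9 to 40.3), in 7 T7 cells, 14.6% (6.07 to 27.8), and in 0 T9 cells. The background of whole loss over all pairs of a cell and an autosome was 7.5% for T1, 1.54% for T7 and 0.947% for T9. Of the 14 whole losses of any autosome in T7, 7 were of chromosome 10, and chromosomes 9 and 14 had 3 each. In T1 the chromosome ranked 2 for whole loss, behind chromosome 4 with 45 cells. With a stricter loss threshold of -0.70 whole loss was called in 0% of T1 and 4.17% of T7 cells, and with a ratio made from depth alone in 6.38% of T1 cells.

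The whole losses of T1 had levels from -0.70 to -0.51 with a median of -0.56, and 10 of the 12 had no breakpoint. In T7 the 7 whole losses ran from -0.87 to -0.51 with a median of -0.66, and 6 of them had no breakpoint. Lost segments covered 100% of the length in those 16 cells. The exceptions were T1 cells 180042 at 89.4% and 180038 at 83.5% and T7 cell 180091 at 83.6%. The 2 T1 exceptions each kept a stretch above the threshold, from 97146224 to 110625578 at -0.28 in cell 180042 and from 89158458 to 110126343 at -0.37 in cell 180038.

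T7 cell 180091 had the most divided chromosome 10 among the whole losses, with 5 segments. Its first segment, to 13551325, was at -0.41, just above the threshold, and the next, to 24006843, was at 0.17. Then came -0.57 up to 83666868, -0.85 up to 97146223 and -0.51 to the end. The stretch at 0.17 holds Tnfaip3, which restrains NF-kB signalling, the kinase gene Map3k5 and the transcription factor gene Myb. This cell had 37.2 Mb of sequenced bases and a noise of 0.236, the highest noise of the T7 cells used, and the part of either in its pattern was not tested.

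Partial loss, in which lost segments held under 80% of the length, was found in 2 T1 cells, 4.26% (0.520 to 14.5), in 4 T7 cells, 8.33% (2.32 to 20.0), and in no T9 cell, 0 of 50, with the same limit of 6%. The background of partial loss was 12% for T1, 2.96% for T7 and 14.5% for T9, so of the 3 tumours only T7 had a chromosome 10 share above that over all autosomes. Chromosome 7 of T7 had partial losses in 5 cells. All 4 T7 cells had lost the distal end and kept the proximal end. Of the T1 cells 1 had lost the distal end and 1 an internal stretch. No cell of any tumour had lost the proximal end alone, and none had a gained segment, with limits of 6.38% for T1, 6.25% for T7 and 6% for T9.

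T7 cell 180055 was at -0.04 up to 65195160 and at -0.67 beyond, 51.5% of the length, a step of -0.63. The break lay at 1 bin border at the resolution of the fit, between a bin within Ctnna3, which encodes alpha-catenin 3, and the next bin. T7 cell 180098 was at -0.04 up to 71685219 and at -0.52 beyond, 46.4% of the length. Its break could lie from 70686749 to 71685219, and the last bin kept holds Tfam, which packages mitochondrial DNA, with Ube2d1, Cisd1 and Ipmk. The borders of these cells lay 6.49 Mb apart, and their position ranges did not overlap.

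T7 cell 180086 changed level at 2 places. It was at -0.06 up to 36951770, at 0.23 up to 57364925, and at -0.50 from there to the end, 57.4% of the length. The middle stretch at 0.23 stayed under the gain threshold of 0.32. T7 cell 180053 was at -0.22 up to 70187513 and at -0.42 beyond, 47.5% of the length. Its lost segment lay at the threshold itself and its step of -0.19 was under the 0.20 asked of a breakpoint, so it is the least certain of the 4. None of the 4 distal segments reached the stricter threshold of -0.70.

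In T1, cell 180006 was at -0.16 up to 61700512 and at -0.70 beyond, 54.2% of the length. The border lies after the bin with Nodal, a ligand of early patterning, Prf1, which encodes perforin, and Eif4ebp2, a translation repressor. T1 cell 180001 had an internal segment at -0.45 from 82668398 to 100640871, 14.1% of the length, with -0.22 before it and -0.31 after it. That stretch holds Igf1, a growth factor gene, Apaf1, the core of the apoptosome, and Kitl, the ligand of the receptor Kit. The steps into and out of it, -0.23 and 0.14, were small beside the step of -0.54 in cell 180006.

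**Figure D3:**
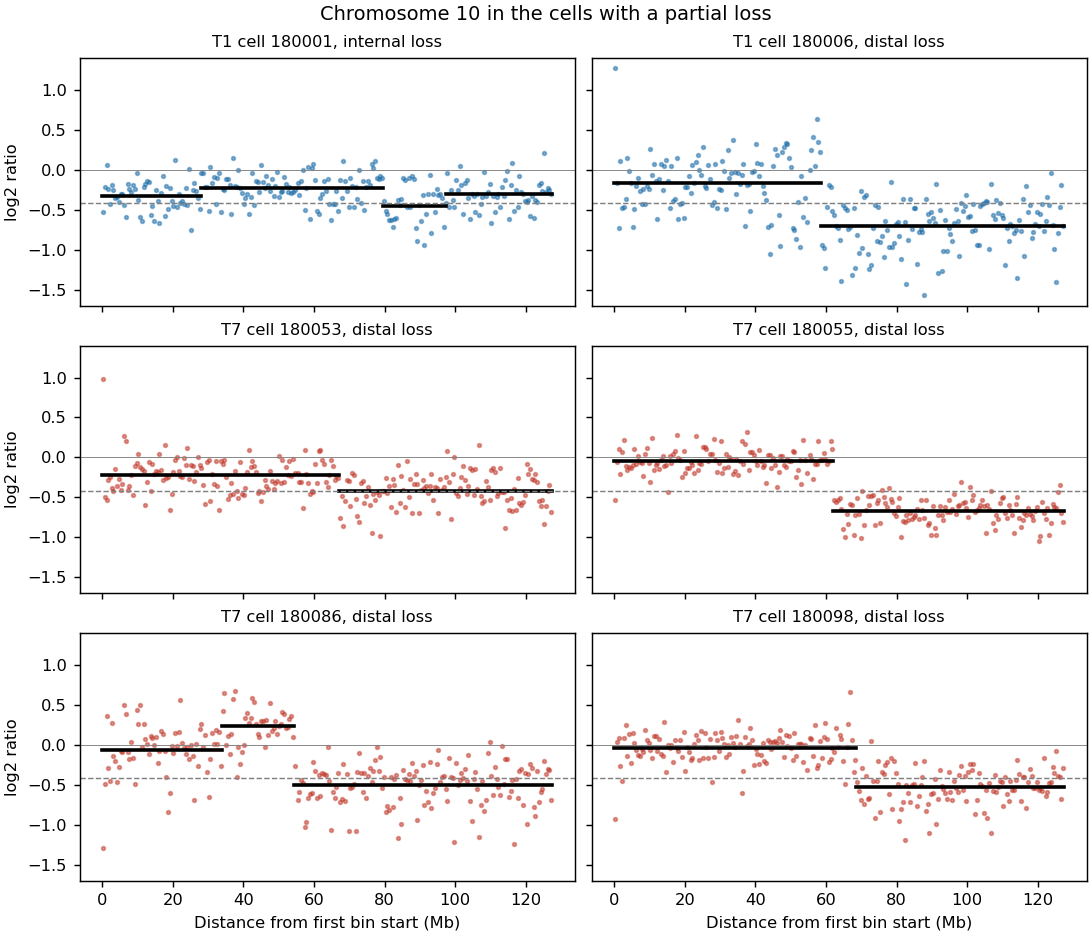
Log2 ratio of each chromosome 10 bin (points) and segment means (black lines) by distance in Mb from the start of the first bin in the 6 cells with a partial loss, with a dashed line at the loss threshold of -0.42. T7 cells 180055 and 180098 fall from -0.04 to -0.67 and -0.52, T1 cell 180006 falls from -0.16 to -0.70, and T7 cell 180053 and T1 cell 180001 cross the threshold by a narrow margin.

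Depth in the same cells is not independent of the calls. The cells without a loss were chosen by the log2 ratio and the split lies near a T7 break, so some separation was built in. Distal depth was 0.572 times proximal depth in T7 cell 180055, 0.625 times in cell 180098, 0.667 times in cell 180086 and 0.797 times in cell 180053. The 37 T7 cells without a loss had a median of 0.883 and ran from 0.738 to 0.937, so 3 of the 4 distal losses lay below every one of them and cell 180053 lay among them. In T1 the ratio was 0.631 in cell 180006, below the range of 0.847 to 0.965 in the 33 cells without a loss, and 0.848 in cell 180001, at the low end of that range. When segments were called on a ratio made from depth alone, only cell 180055 kept the class of distal loss. Cells 180006, 180053 and 180098 then had an internal loss, and cells 180001 and 180086 had none.

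**Figure D4:**
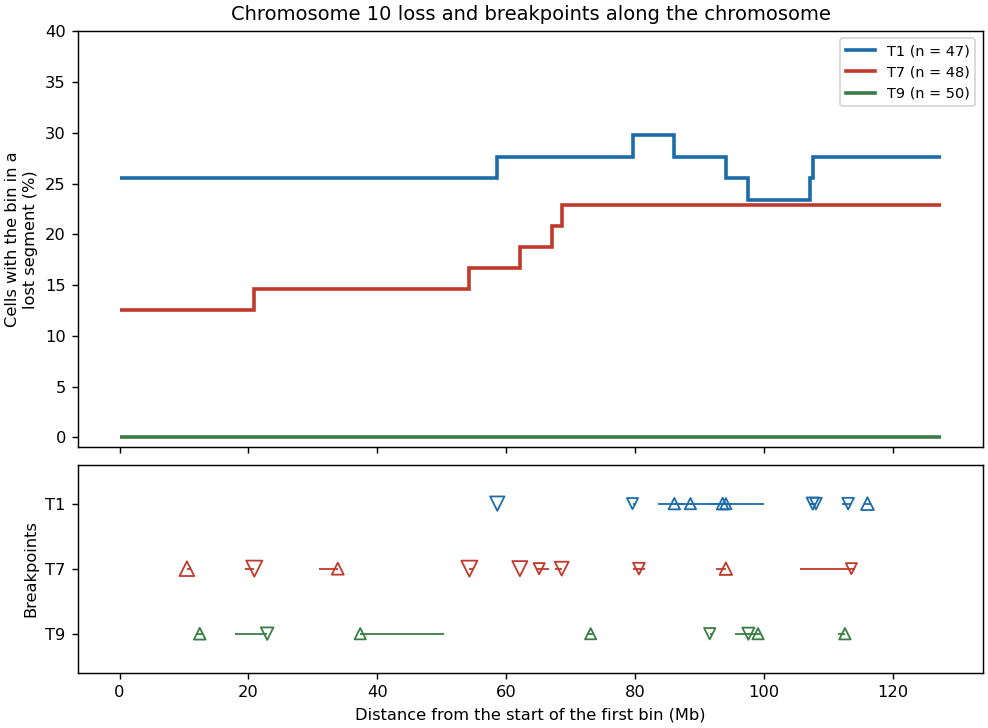
Upper panel, percent of cells of T1, T7 and T9 in which each chromosome 10 bin lies in a lost segment, by distance in Mb from the start of the first bin. Lower panel, breakpoints of each tumour at the same scale, with triangles pointing down for a fall and up for a rise towards the distal end and lines for the range of positions. The T7 line climbs from 12.5% to 22.9% while that of T1 stays between 23.4% and 29.8% and that of T9 at 0.

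Counted bin by bin, loss in T7 rose in steps towards the distal end. The bins up to 24006843 lay in a lost segment in 6 cells, those up to 57364925 in 7, up to 65195160 in 8, up to 70187513 in 9, up to 71685219 in 10 and from there to the last bin in 11 of 48 cells. Each step is the border of 1 cell, so the rise comes from 5 cells with borders at 5 places. In T1 the count stayed between 11 and 14 of 47 cells. It was highest from 82668398 to 89158457, within the internal segment of cell 180001, and lowest from 100640872 to 110126343. In T9 it was 0 at every bin.

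A bin was counted as often lost when 20% or more of the cells of a tumour had it in a lost segment. In T1 that held for 255 of 255 chromosome 10 bins, 100%, against 20.1% of all autosomal bins. In T7 it held for 121 chromosome 10 bins, 47.5%, against 2.52% of all autosomal bins, and those 121 were all such bins in T7. In T9 it held for 0 chromosome 10 bins against 4.2% of all autosomal bins.

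A breakpoint is a border where the means of the segments beside it differ by at least 0.20. At least 1 was found in 7 T1 cells, 14.9% (6.20 to 28.3), in 6 T7 cells, 12.5% (4.73 to 25.2), and in 4 T9 cells, 8% (2.22 to 19.2). Over all pairs of a cell and an autosome the share with a breakpoint was 53% for T1, 22.9% for T7 and 47.8% for T9. The share of chromosome 10 lay below that in each tumour and ranked 17 of 19 for T1, 7 for T7 and 16 for T9, tied with others in T7 and T9. The T1 share rests on the settings: it was 44.7% with a lower penalty for a break, 4.26% with a higher one, 6.38% with a step of 0.30 and 85.1% with a ratio from depth alone. With that ratio it was 35.4% in T7 and 40% in T9. More than 1 breakpoint was found in 3 T1 cells, 2 T7 cells and 1 T9 cell.

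The sizes of the steps differed among the tumours. The 10 breakpoints of T1 had steps with a median size of 0.27 and a largest of 0.54, the 10 of T7 a median of 0.42 and a largest of 0.74, and the 8 of T9 a median of 0.24 and a largest of 0.35. The step crossed the loss threshold at 5 breakpoints of T1, at 4 of T7 and at none (0) of T9. The range of positions had a median width of 1.25 Mb for T1 breakpoints, 1.496 Mb for those of T7 and 0.998 Mb for those of T9. Of the T9 breakpoints 5 were in 1 cell, 180112, whose 6 segments lay between -0.40 and 0.07.

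Breakpoints at most 5 Mb from the next one along the chromosome were joined into 1 place, so a place can span more than 5 Mb. Places shared by different cells numbered 2 in T1, 1 in T7 and 1 in T9. In T1, 4 cells rose between 89158457 and 97146223, and 4 had a breakpoint between 110625578 and 119112579, of which 3 fell and 1 rose. These places were not particular to T1. Joined over all 3 tumours, 8 cells had a breakpoint from 89158457 to 102138577 and 6 from 110625578 to 119112579, with T7 and T9 cells in both. Cells 180020, 180027 and 180042 had a breakpoint at both T1 places. Of these, cells 180020 and 180027 had 31.5 Mb and 20.5 Mb of sequenced bases and cell 180042 had 104.8 Mb, against a T1 median of 97.7 Mb. Their noise was 0.222, 0.250 and 0.217, against a median of 0.190. Cell 180038, which also rose at the first place, had 95.6 Mb and a noise of 0.168, and cell 180003, which rose at the other, had 106.4 Mb and a noise of 0.233. The part of depth and noise in these borders was not tested.

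The stretch between the shared T1 places was also high in T1 cells as a group. From 100141636 to 110126343 the T1 bins lay 0.11 above the level of their cell in the median cell, against 0.04 in T7 and -0.02 in T9. That window had 2.4 genes per bin, fewer than any other window of 10 Mb, in which the mean ran from 3.65 to 11.65. Across the 255 bins Spearman's rho between the median departure of a bin and its number of genes was -0.35 for T1, -0.27 for T7 and -0.01 for T9. These are descriptions over bins that share their cells, and the part of gene density in the borders of T1 was not tested.

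In T7 the cluster of 3 breakpoints lay between 65195160 and 71685219, in cells 180055, 180090 and 180098, and all 3 fell. Cell 180090 had no loss. It was at 0.18 up to 68190572 and at -0.05 beyond, with the border within Arid5b, a gene of a chromatin cofactor, and a range from 67691336 to 69688278. The ranges of the 3 cells did not overlap. T1 cell 180006 broke at 61700512, proximal to all 3. In T9 the place lay between 100640871 and 102138577, where cell 180128 fell by 0.32 and cell 180117 rose by 0.23.

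Chromosome 10 was the most variable autosome of T7 and not of the others. Its SD over T7 cells of 0.25 was the highest of 19, followed by 0.17 for chromosome 2, and the median of the other 18 autosomes was 0.069. In T1 its SD of 0.19 ranked 4, behind among others chromosome 13 at 0.31 and chromosome 19 at 0.24, with a median of 0.135 for the other 18. In T9 its SD of 0.12 ranked 14, with a median of 0.138 for the others. By the interquartile range, which a few extreme cells do not set, it ranked 3 in T1 at 0.34, 1 in T7 at 0.15 and 2 in T9 at 0.21.

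The high interquartile range of T9 came with levels in 2 sets. There were 17 cells from -0.24 to -0.12 with a median of -0.19 and 33 cells from -0.03 upwards with a median of 0.03, and no cell lay in the gap of 0.08 between them. The lower set stayed above the loss threshold, and no T9 cell had a lost segment. Cell 180109 at 0.27 stood 0.13 above the next cell, and its single segment stayed under the gain threshold of 0.32. The sets were seen in these data and are no groups of the study, so nothing was compared between them.

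Level and depth of a cell moved little together. Pearson's r between the level and the sequenced bases of a cell was -0.07 over 47 T1 cells, 0.00 over 48 T7 cells and 0.11 over 50 T9 cells. With noise it was -0.02 for T1, -0.30 for T7 and 0.13 for T9. Cells of a tumour share their source, and these values are descriptions.

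The size of the loss was set beside that of chromosomes 4 and 9 within the 13 T1 cells with a lost chromosome 10. By segments chromosome 4 was lost in whole in 45 of the 47 T1 cells, while chromosome 9 was lost in part in 46 and in whole in 1, so its median is taken over lost and kept bins. In those cells the level of chromosome 10 had a median of -0.55 (SD 0.07), that of chromosome 4 a median of -0.62 (SD 0.06) and that of chromosome 9 a median of -0.51 (SD 0.07). Chromosome 10 lay above chromosome 4 in 12 of the 13 cells, by a median of 0.06 and between -0.07 and 0.22. It lay below chromosome 9 in 11 of the 13, with a median difference of -0.05 and a range from -0.30 to 0.11. The median differences were small beside the median levels. Single cells differed more, by -0.30 from chromosome 9 in cell 180039, where chromosome 9 was at -0.37, and by 0.22 from chromosome 4 in cell 180006. As arithmetic marks, log2 of 1 copy over 2 is -1, of 2 over 3 is -0.58 and of 3 over 4 is -0.42, and the relative levels do not give the number of copies.

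**Figure D5:**
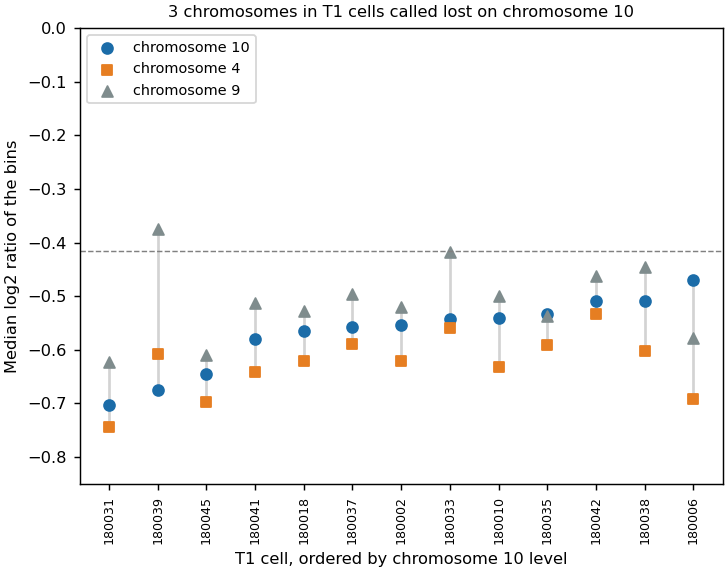
Median log2 ratio of chromosomes 10, 4 and 9 in each of the 13 T1 cells called lost on chromosome 10, ordered by chromosome 10 level, with a dashed line at the loss threshold of -0.42. Chromosome 4 is the lowest of the 3 in 12 cells, and cell 180006, which lost chromosome 10 in part, has the widest gap to chromosome 4, at 0.22.

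Most cells with and most without loss of chromosome 10 carried the changes counted here, on chromosomes 4, 6 and 9 in T1 and 2 and 6 in T7. Not all did: T7 cells 180063 and 180084, without a loss, lay between -0.01 and 0.01 on chromosomes 2, 4, 6 and 9. In T1 0 cells had a gained median on chromosome 2, but its level moved with that of chromosome 10, as given below. Chromosome 10 was called here by segments and the other chromosomes by the median of their bins. By segments chromosome 9 was lost only in part in 46 of the 47 T1 cells. Of the 14 T1 cells with any lost segment 13 had a lost median on chromosome 4, 12 had one on chromosome 9 and 11 had a gained median on chromosome 6. Of the 33 T1 cells without a lost segment 32, 32 and 26 had those changes. In T7, 10 of 11 cells with a lost segment had gained chromosome 2 and 9 had gained chromosome 6, against 24 and 28 of the 37 cells without one. Over the T1 cells Pearson's r between the level of chromosome 10 and that of another autosome was highest for chromosome 13, 0.65, with a Spearman's rho of 0.47. It was 0.62 for chromosome 2 (rho 0.64), 0.51 for chromosome 14 (rho 0.54), 0.49 for chromosome 8 (rho 0.50) and lowest for chromosome 1, at -0.56 (rho -0.46). In T7 chromosome 7 had the highest r, 0.53, with a rho of 0.46. All levels share the centring of their cell, and these values are descriptions.

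The genes of the chromosome followed their segments, since each took the mean of the segment over its middle. All 47 genes of 4 lists were found on chromosome 10, 19 proximal and 28 distal. Over all 47, a gene lay in a lost segment in 12 to 14 T1 cells, in 6 to 11 T7 cells and in 0 T9 cells. In T7 the share of 20% of cells was reached by 0 of the 19 proximal and 28 of the 28 distal genes, and in T1 by all 47. Of all autosomal bins 2.52% reached it in T7 and 20.1% in T1. The T7 contrast was largely built in, since the split was chosen with earlier results of these data known. The T7 count passed 20% beside the split, from 9 cells (18.75%) up to 70187513 to 10 cells (20.8%) beyond it. In T7 the proximal genes were lost in 6 to 9 cells and the distal genes in 11. Genes on 1 segment are not independent of each other, and these are relative log2 ratios of DNA, neither numbers of copies nor expression.

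Among genes of growth, survival and the cell cycle 6 were proximal and 10 distal. Esr1, the oestrogen receptor gene, at 4611989 to 5005633, was in a lost segment in 12 T1 and 6 T7 cells. The receptor kinase gene Ros1, at 52044863 to 52195398, was lost in 12 and 7 cells, and Cdk1, the kinase that starts mitosis, at 69335146 to 69352912, in 13 and 9 cells. On the distal side Mdm2, at 117688875 to 117710758, and the receptor gene Erbb3, at 128567523 to 128589635, were each lost in 13 and 11 cells. Igf1, at 87858265 to 87937047, was lost in 14 T1 cells, the most of the 47 genes, because of the internal segment of cell 180001. Cdk4 and Cdk2, both distal, had the counts of Mdm2.

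Of the tumour suppressors and genes of DNA damage and cell death 9 were proximal and 7 distal. Lats1, a kinase of the Hippo pathway, at 7681200 to 7716461, was lost in 12 T1 and 6 T7 cells. Foxo3, a transcription factor gene under control of Akt, at 42181845 to 42276695, was lost in 12 and 7 cells, as was Prdm1, the repressor gene at 44437174 to 44528558. Stk11, at 80115767 to 80130679, was lost in 13 and 11 cells. The level at Stk11 ran from -0.76 to -0.04 over T1 cells, from -0.86 to 0.18 over T7 cells and from -0.28 to 0.26 over T9 cells. The T9 cells thus overlapped both other tumours there and reached no loss.

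Of the genes of lung, lineage and adhesion 4 were proximal, each lost in 12 T1 and 7 T7 cells, and 5 distal, each lost in 13 and 11. The proximal ones include Gja1, the gap junction protein connexin 43, and the laminin genes Lama2 and Lama4. The distal ones include Lyz2, at 117277541 to 117282272, and the collagen genes Col6a1 and Col6a2. All 6 immune genes were distal and lost in 13 T1 and 11 T7 cells, among them Ifng, which encodes interferon gamma, Stat6, which carries signals of interleukin 4, and Itgb2, the beta chain of leukocyte integrins.

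Single bins departed from the level of their cell mainly in T1. The median departure was over 0.2 in size in 32 bins of T1, 15 above and 17 below, against 2 bins in T7 and 2 in T9. The lowest T1 bins were that starting at 81669928, at -0.58, which holds zinc finger genes such as Zfp433 and Zfp781, and that starting at 79173751, at -0.53, which holds the vomeronasal receptor genes Vmn2r80 to Vmn2r83. Both groups are multigene families, in which near-identical copies can share reads. In T7 the same bins lay at -0.14 and -0.14, and in T9 at -0.09 and 0.06.

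The first bin, from 3100001 to 3589097, with H60c, Ppp1r14c and Iyd, went opposite ways. It lay at a median of 0.62 above the level of the cell in T1, above 0 in 37 of 47 cells, at -0.71 in T7, above 0 in 8 of 48, and at -0.67 in T9, above 0 in 2 of 50. Its depth was 6.04 times the chromosome 10 median in T1, 2.14 times in T7 and 2.11 times in T9. Its weight of 0.498 was the lowest of the 255 bins, whose median was 0.805. Without this bin 14.6% of T7 cells were called lost instead of 16.7%, as 1 fewer cell reached the threshold, and every other share of chromosome 10 was the same.

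A ratio was also made from depth alone. The depth of a bin was divided by the median of its cell. The result was divided by the median of that bin over all kept cells, lost ones included. This ratio ordered the cells almost alike, with Pearson's r to the level of 0.992 for T1, 0.997 for T7 and 0.988 for T9. It put the median level at -0.08 in T1, 0.06 in T7 and 0.12 in T9, where the log2 ratio gave -0.18, -0.02 and 0.02, so the place of each tumour against 0 depends on the ratio used and the sign of T7 turned. It called 11 of the 13 lost T1 cells, 7 of the 8 lost T7 cells and no T9 cell. It did not keep the segments of T1: whole loss fell from 25.5% to 6.38% of cells, partial loss rose from 4.26% to 38.3%, and breakpoints rose from 14.9% to 85.1%. Centring each cell at the mode of its bins moved the median T1 level from -0.18 to -0.30 and called 29.8% of T1 cells lost.

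Sequenced bases per cell ran from 20.5 to 170.1 Mb with a median of 97.7 in T1, from 24.6 to 140.3 Mb with a median of 69.3 in T7, and from 43.3 to 82.1 Mb with a median of 56.7 in T9. Noise, the scatter between neighbouring bins, had medians of 0.190, 0.146 and 0.133. Losses under 10 Mb were not called, by the rule for segments. Cell and doublet identity could not be checked in these tables.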

How the data were processed

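Per the submitters' processing notes, BWA 0.7.17 and the GRCm38 build were used on the reads of 150 cells. The deposited tables give, per bin and cell, the coverage signal (mean reads per base) and a log2 ratio, and the deposited weight table gives a score from 0 to 1 per bin. The method behind ratio and weight was not given in the sources used here. One engineered locus is not reported here.

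Bins needed depth and a finite ratio in at least 80% of cells. Cells needed depth in 80% of autosomal bins and noise (1.4826 times the median absolute neighbour difference over the square root of the number 2) of at most 0.267, the median plus 3 scaled deviations. Cells were centred on their autosomal median. Loss was called at or under -0.42 and gain at or above 0.32. Segments came from optimal partitioning by least squares, where each break cost 3 times squared noise times the natural log of the bin number. The fit was tried on losses planted in these cells after their own fitted segment means were subtracted. Because fitted steps had been removed, that trial cannot give the rate of false breaks. Breakpoint ranges hold the positions within 3.84 squared noise units of the best fit. Proximal bins (133) end by 70 Mb, distal bins (121) start after it, and 1 bin spans the split.

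Named genes are members of 4 lists on chromosome 10, plus genes of the bins beside a breakpoint and of outlying bins, chosen after their values were seen. Named cells are the lowest or highest of a tumour or hold a breakpoint and a loss. Others, such as cells beside a threshold or gap and those at shared breakpoints, were named after their values were seen. Members, lists and the split were chosen with earlier results of these data known. Intervals are exact Clopper-Pearson 95%, and for 0 cells the limit is 3 cells of the total. Tools were Python 3.11.15 with matplotlib 3.10.9, numba 0.67.0, scipy 1.17.1, pandas 2.3.3 and numpy 2.4.6. Other centrings, thresholds, penalties, cell and bin filters and a ratio from depth were tried. No 2 cells had identical values, and no doublet caller was run.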

Additional observations from a re-analysis of the deposited data

How the results depend on the processing

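In all, 24 values were recomputed under 14 alternatives, giving 225 pairs, of which 213 stayed within the stated margins (1.5 times or the interval of a share, or the SD of a level) and 12 moved. The SD over cells is a wide margin for a level, and all pairs that moved were shares. Within it fell the T1 level of -0.30 with centring at the mode, against -0.18. So did the T7 level of 0.06 with a ratio from depth, against -0.02. Stricter thresholds called 2.13% of T1 cells and 4.17% of T7 cells lost by the median, and 0% of T1 and 4.17% of T7 cells lost in whole. A ratio from depth alone gave whole loss in 6.38% and partial loss in 38.3% of T1 cells, and the share with a breakpoint became 85.1% for T1, 35.4% for T7 and 40% for T9. A penalty of 2 gave breakpoints in 44.7% of T1 cells, and a penalty of 5 in 4.26%. Looser thresholds gave partial loss in 12% of T9 cells, where the main setting gave 0%. The cause of these shifts was not tested. Breakpoints in T1 also fell to 6.38% of cells with bins of higher weight, with longer segments and with a step of 0.30, the last chosen after seeing the data, as was leaving out the first bin. Partial loss in T9 was 2% with bins of higher weight or centring at the mode. Partial loss of any kind in T7 was 8.33% of cells under changed thresholds, centrings, penalties and segment lengths. With stricter thresholds none of the cells with a distal loss in the main setting was among them, their distal segments lying between -0.67 and -0.42. The cells counted there were whole losses in the main setting. They were 180065, 180066, 180070 and 180091, whose lowest segments were at -0.75, -0.78, -0.76 and -0.85. Under the other settings the count need not be of the same cells. No paired analysis was possible because the replicate numbers only name cells in accession order and no test was made between tumours. The number of cells, 47 to 50 a tumour, limits the precision of the shares.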
